A study of Mus musculus with 6 samples.

Results

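Yy2 and Zbed6 are genes without introns that lie inside larger genes, and their counts in substantia nigra were examined beside those of their hosts, Mbtps2 and Zc3h11a, and of Yy1, the gene from which Yy2 was copied. The listed symbols were matched to Ensembl gene identifiers in mouse mm10, which gave 5 symbols and 6 identifiers of 55335 in the files, because Zc3h11a is annotated under 2 identifiers. The members were chosen by their counts in these same libraries, so their differences between the groups are given as a description, with no test. RNA sequencing was run on total RNA from the substantia nigra of C57 mice, a part of the midbrain rich in dopaminergic neurons. The controls are 3 libraries with WT titles. The other 3 carry the label shDNAJB1, which names a short hairpin RNA, and Dnajb1 codes for an HSP40 co-chaperone. Values of a group are given below in the order of replicates 1, 2 and 3. The labels do not say how the hairpin was delivered, whether control mice received one, or whether each library is from its own mouse, so the spread between libraries may be technical. In bulk tissue, fewer cells of a type and less RNA per cell cannot be told apart.

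YY1 is a zinc finger transcription factor of most cell types that can activate or repress genes and works with the INO80 chromatin remodelling complex, and YY2 binds similar DNA through its own fingers. Yy2 arose when a spliced Yy1 transcript was copied back into the genome, inside Mbtps2. Mbtps2 codes for the site-2 protease, which cuts the SREBP and ATF6 proteins inside the membrane and so releases the factors that turn on genes of lipid synthesis and of protein folding. ZBED6 is a repressor of Igf2 in muscle, and its gene came from a DNA transposon and not from a copied transcript, so the name retrogene fits Yy2 and not Zbed6. Zc3h11a codes for a zinc finger protein of the TREX complex, which carries mRNA out of the nucleus.

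The gene models decide how far a nested gene can be told from its host. Yy2 (ENSMUSG00000091736) lies on the minus strand at chrX:157566119-157568985 and has 1 exon of 2867 bases. Mbtps2 (ENSMUSG00000046873) spans chrX:157535371-157598715 on the same strand. Yy2 is intronic with respect to the Mbtps2 transcript with 11 exons, Mbtps2-201. The shorter transcripts Mbtps2-203 and Mbtps2-208 have a last exon that holds all 2867 bases of Yy2. In Mbtps2-208 the annotated coding sequence is that of Yy2 itself, 1134 bases with the stop codon.

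Zbed6 (ENSMUSG00000102049) lies on the minus strand at chr1:133655879-133660885 and has 1 exon of 5007 bases. The Zc3h11a identifiers, ENSMUSG00000102976 and ENSMUSG00000116275, begin and end within a few bases of each other on the same strand, and the first spans chr1:133619862-133661380. Zbed6 is intronic in their full-length transcripts, Zc3h11a-203 and Zc3h11a-213. A further gene, Gm38394 (ENSMUSG00000094410), joins the exons of Zc3h11a to a first exon that holds all 5007 bases of Zbed6, and its coding sequence is that of Zbed6. Gm38394 is no listed member, but Zbed6 counts cannot be read without it. Yy1 (ENSMUSG00000021264) stands apart from these loci at chr12:108792973-108820148 on the plus strand, with its coding sequence in 5 exons.

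**Figure D1:**
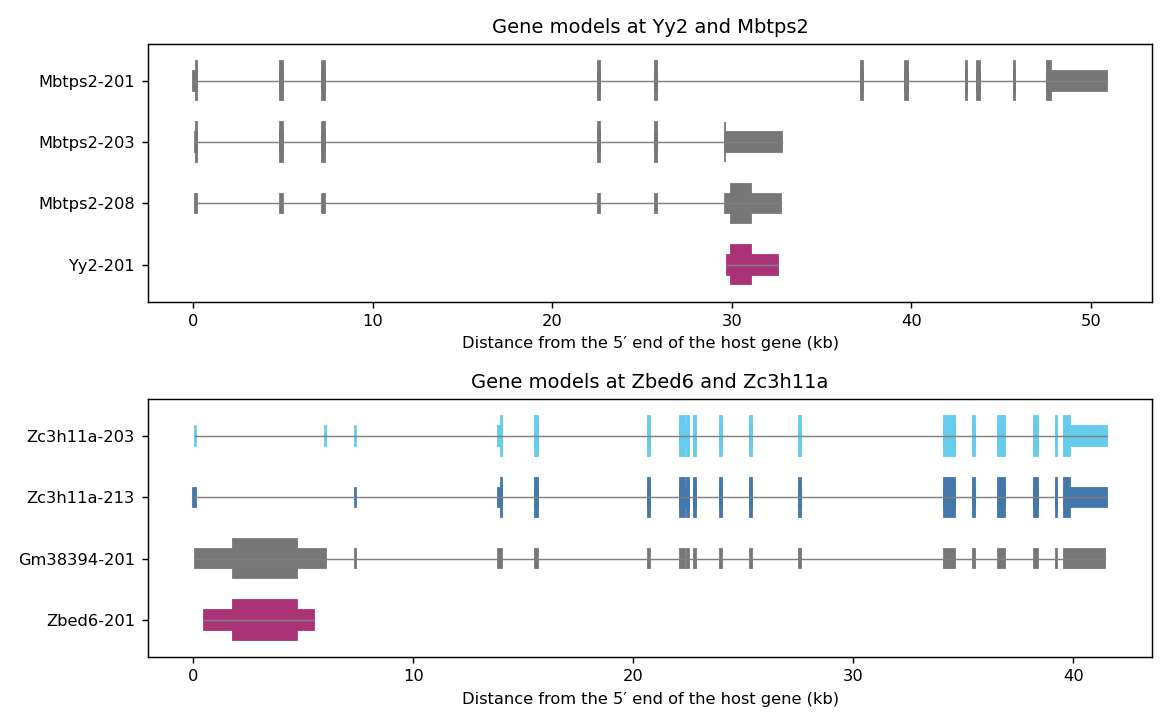
Exons (boxes, tall where coding) and introns (lines) of the main transcripts at both loci, drawn by distance in kb from the 5′ end of the host gene. The exon of Yy2-201 lies inside the last exon of Mbtps2-203 and Mbtps2-208 and in an intron of Mbtps2-201, and the exon of Zbed6-201 lies inside the first exon of Gm38394-201 and in introns of both Zc3h11a transcripts.

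The fingers of Yy1 and Yy2 show how close parent and copy are, and they are printed from the GENCODE M21 transcripts (mm10), 5′ to 3′, with the differing bases in capitals. Finger 1 of Yy1 is cut by an intron in chr12:108812968-108814662 on the plus strand, and that of Yy2 is unbroken at chrX:157567917-157567985 on the minus strand.
Yy1 finger 1: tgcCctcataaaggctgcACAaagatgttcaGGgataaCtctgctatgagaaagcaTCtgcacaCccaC
Yy2 finger 1: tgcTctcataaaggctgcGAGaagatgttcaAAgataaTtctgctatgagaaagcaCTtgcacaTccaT
The last finger is at chr12:108815563-108815631 in Yy1 and at chrX:157567656-157567724 in Yy2.
Yy1 last finger: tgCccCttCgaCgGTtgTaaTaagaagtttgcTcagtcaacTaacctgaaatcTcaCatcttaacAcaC
Yy2 last finger: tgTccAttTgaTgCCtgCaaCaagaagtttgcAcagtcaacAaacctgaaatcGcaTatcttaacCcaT
Finger 1 differs at 11 of 69 bases and the last finger at 14 of 69. Over the whole stretch of 4 fingers, 273 of 330 bases (82.7%) and 101 of 110 translated residues (91.8%) are the same, and over the aligned parts of both proteins 61.2% of residues are the same. Of the 2837 windows of 31 bases in the Yy2 transcript, 2 also occur in the Yy1 transcript. Parent and copy are thus separable by sequence along nearly the whole transcript.

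Nested gene and host are not separable in that way. Every one of the 2837 windows of Yy2 also occurs in Mbtps2-203 and in Mbtps2-208, and 0 occur in Mbtps2-201. Each of the 4977 windows of Zbed6 also occurs in Gm38394-201, and 0 occur in the full-length Zc3h11a transcripts. The Zc3h11a transcripts share 4273 windows with each other, 97.9% of those of either one, and Zc3h11a-203 shares 97.5% of its windows with Gm38394. The stretch below is the first 60 coding bases of Zbed6, with the start codon in capitals. It lies at chr1:133659538-133659597 on the minus strand and stands in Zbed6-201 and Gm38394-201 alike.
Zbed6 coding start: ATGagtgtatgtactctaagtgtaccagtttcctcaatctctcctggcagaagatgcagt
A read across the splice into the last exon of Mbtps2-208, whose ends lie within chrX:157569084-157572873, belongs to the host alone. The capitals mark the bases of the exon that holds Yy2.
Mbtps2-208 junction: ggatattttgtgcagTTTAGTGACGTTTCC
The sources used here do not say how reads that fit several genes were assigned, so counts of Yy2, Zbed6, both Zc3h11a identifiers and Gm38394 are uncertain as levels of separate transcripts.

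The libraries held 24541386 to 38468363 counts. Dnajb1 was at 47.2 to 59.8 CPM (counts scaled to a common library size by the TMM method) in controls and 44.3 to 52.5 CPM under the shDNAJB1 label, with overlapping groups and a log2 difference of -0.09 (SE 0.13, edgeR adjusted p = 0.909), so the label is used as a name throughout. By edgeR's quasi-likelihood test 0 of 18870 genes tested passed an adjusted p of 0.05 (0%), and 1202 (6.37%) had an unadjusted p under 0.05. The limma-voom test also called 0 genes, while DESeq2's Wald test called 56 of 17396 (0.322%) on the same genes and 35 of 20938 (0.167%) with its own filter. Groups did not overlap in CPM for 14.0% of the genes tested, 6.98% with higher and 7.06% with lower values under the shDNAJB1 label. Markers of 6 cell types were detected in every case, and the summed markers of dopaminergic neurons ranged from 662 to 2530 CPM and those of GABAergic neurons from 272 to 1649 CPM over the 6 libraries.

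Yy2 counts were 99, 74 and 62 in the controls, and 0, 0 and 6 under the shDNAJB1 label. Every control library was above every library labelled shDNAJB1, and the counts of the second group were near the floor. A count of 0 allows up to 3 counts. On the TMM-scaled CPM scale the group means were 2.45 ± 0.34 (SD, n = 3) and 0.05 ± 0.09 (SD, n = 3). The fitted log2 difference was -5.22 (SE 0.79), which depends on how zeros are handled: it was -4.34 with a larger prior count of 2 and -9.18 without shDNAJB1 3, where every remaining library of that label was at 0. In the same comparison 7.06% of all genes tested had groups that did not overlap with lower values, and since Yy2 was picked for this difference nothing is read from it.

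Mbtps2, the host, had 1026, 919 and 876 counts in the controls and 716, 890 and 1101 under the shDNAJB1 label. Scaled for depth these were 28.2, 31.8 and 29.1 CPM against 29.0, 31.9 and 28.2 CPM. The groups overlapped, and their means were 29.7 ± 1.90 and 29.7 ± 1.95 CPM (SD, n = 3 each), a log2 difference of 0.00 (SE 0.11). The coefficient of variation over the 6 libraries was 5.79%, against a median of 17.8% over all genes tested.

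Host-to-nested ratios put both genes of the X chromosome on 1 scale that does not depend on depth. Mbtps2 had 10.4, 12.4 and 14.1 counts for each count of Yy2 in the controls. In shDNAJB1 3 the ratio was 183.5, and in shDNAJB1 1 and 2 it was at least 239-fold and at least 297-fold, taking 3 counts per library as the floor. As a share of the counts of the pair, Yy2 took 8.80%, 7.45% and 6.61% in the controls, with exact binomial 95% intervals that together ran from 5.10% to 10.6%. It took 0.542% in shDNAJB1 3, with an interval from 0.199% to 1.18%, and 0% in shDNAJB1 1 and 2, with upper bounds of the same interval at 0.514% and 0.414%. A floor of 3 counts would be 0.419% and 0.337% there. Intervals and floors cover counting error alone. The mean share was 7.62% ± 1.10 (SD, n = 3) in controls and 0.181% ± 0.313 (SD, n = 3) under the shDNAJB1 label.

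The sum of Yy2 and Mbtps2 was 1125, 993 and 938 counts in the controls and 716, 890 and 1107 counts under the shDNAJB1 label. On the CPM scale these were 30.9, 34.4 and 31.2 against 29.0, 31.9 and 28.4, and the groups overlapped. With the pair entered as 1 gene the log2 difference was -0.11 (SE 0.11), and it ran from -0.16 to -0.06 on leaving out 1 library. Yy2 made up 2.45 of the mean 32.2 CPM of the sum in the controls, so the sum does not resolve a difference as large as the whole Yy2 level.

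Yy1, the parent gene, had 2188, 1913 and 1853 counts in the controls and 1408, 1811 and 2652 under the shDNAJB1 label. These were 60.1, 66.2 and 61.7 CPM against 57.1, 65.0 and 67.98 CPM. The groups overlapped, with a log2 difference of 0.02 (SE 0.11). Per kb of exon, Yy1 stood at 9.76 ± 0.50 CPM per kb in controls, Mbtps2 at 2.94 ± 0.19 and Yy2 at 0.854 ± 0.119 (SD, n = 3 each). By these counts Yy2 was the lowest of these in every control library, with no overlap between any pair of the genes. All bases of Yy2 are also exonic in Mbtps2, so this does not rank the transcripts of that pair.

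Zbed6 counts were 12, 30 and 22 in the controls, and 160, 36 and 326 under the shDNAJB1 label. Values were high in shDNAJB1 1 and 3, while shDNAJB1 2 lay close to control 2. Scaled for depth, the levels were 0.329, 1.04 and 0.732 CPM in controls and 6.49, 1.29 and 8.36 CPM under the shDNAJB1 label. The groups did not overlap, by a margin of 1.04 against 1.29 CPM, and 6.98% of all genes tested had groups apart in that direction. Group means were 0.700 ± 0.356 and 5.38 ± 3.66 CPM (SD, n = 3 each), and the fitted log2 difference was 2.95 (SE 0.70). It was 2.48 without shDNAJB1 3 and 2.13 without both control 1 and shDNAJB1 3. Markers of GABAergic neurons summed to 1649 CPM in shDNAJB1 1, the highest of the 6 libraries, and to 272 CPM in shDNAJB1 3, the lowest, and their part in the Zbed6 values was not tested.

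The 2 Zc3h11a identifiers did not keep a steady ratio between libraries of the same group. ENSMUSG00000102976 had 244, 999 and 1133 counts in the controls and 455, 719 and 1550 under the shDNAJB1 label. ENSMUSG00000116275 had 744, 591 and 411 counts in the controls and 1251, 594 and 574 under the shDNAJB1 label. In control 1 and shDNAJB1 1 the second identifier had more counts than the first, and in the other 4 libraries it had fewer. The groups overlapped for both. Their log2 differences were 0.09 (SE 0.56) and 0.66 (SE 0.42), and the sign of the first turned to -0.36 without control 1 and to -0.25 without shDNAJB1 3, and that of the second to -0.02 without shDNAJB1 1. Summed, Zc3h11a was at 27.1, 55.1 and 51.4 CPM in the controls and at 69.2, 47.1 and 54.4 CPM under the shDNAJB1 label.

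**Figure D2:**
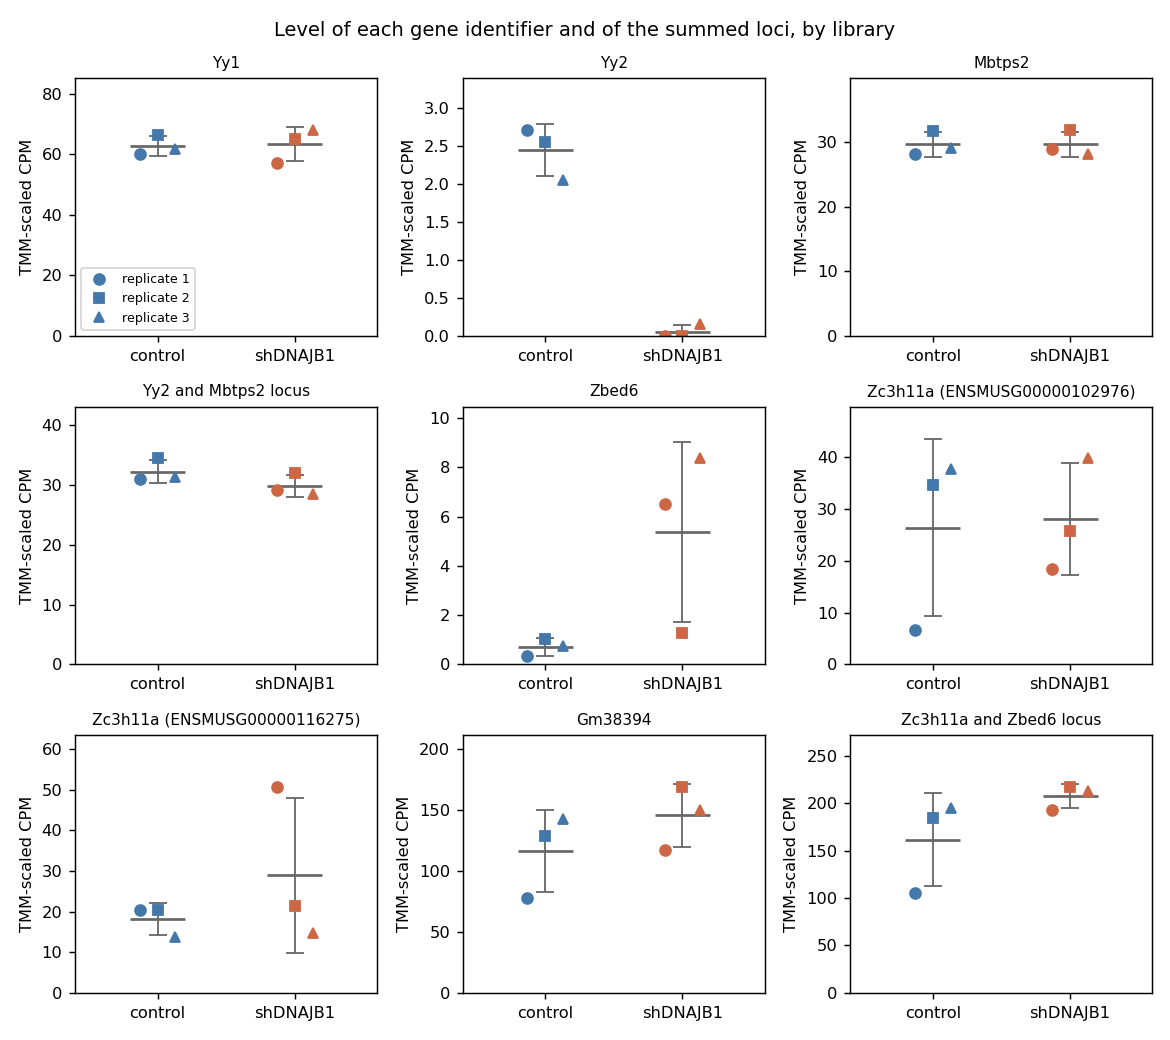
TMM-scaled CPM of each identifier and of the loci with their identifiers summed, for 3 control and 3 shDNAJB1 libraries (symbols give the replicate number, lines the mean, bars 1 SD). Yy2 is near 0 in the second group while Mbtps2 and the sum of both lie at 28.2 to 34.4 CPM, and control 1 is the lowest library for the Zbed6 locus with 105 CPM.

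Zc3h11a, both identifiers together, had 82.3, 53.0 and 70.2 counts for each Zbed6 count in the controls. The ratio was 10.7, 36.5 and 6.52 under the shDNAJB1 label, below each control. As a share of the counts of Zbed6 and Zc3h11a, Zbed6 took 1.20%, 1.85% and 1.40% in the controls and 8.57%, 2.67% and 13.3% under the shDNAJB1 label. The exact 95% interval of shDNAJB1 2 ran from 1.88% to 3.68% and that of control 2 from 1.253% to 2.63%. Those of controls 1 and 3 ended at 2.09% and 2.12%, so the interval of shDNAJB1 2 overlapped each control interval. Intervals of shDNAJB1 1 and 3, which began at 7.34% and 11.99%, lay above all control intervals. The mean share was 1.49% ± 0.333 in controls and 8.18% ± 5.33 under the shDNAJB1 label (SD, n = 3 each). It differed by 6.70 percentage points, and by 4.14 without shDNAJB1 3.

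Gm38394 took most of the counts of that locus, with 60.8% to 77.7% of the counts of its 4 identifiers. Its counts were 2840, 3716 and 4280 in the controls and 2895, 4705 and 5849 under the shDNAJB1 label, or 77.9, 129 and 142 CPM against 117, 169 and 149.9 CPM. With Gm38394 counted as a host too, the share of Zbed6 was 0.312%, 0.562% and 0.376% in the controls and 3.36%, 0.595% and 3.93% under the shDNAJB1 label. The margin between control 2 and shDNAJB1 2 was then 0.562% against 0.595%, inside their counting intervals of 0.380% to 0.802% and 0.417% to 0.822%. With Gm38394 as the 1 host the groups overlapped, at 0.801% in control 2 and 0.759% in shDNAJB1 2. Since the coding sequence of Zbed6 is annotated under Gm38394 as well, the Zbed6 row alone does not give the amount of RNA that carries it.

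Per kb of exon, controls held 0.140 ± 0.071 CPM per kb of Zbed6, 7.38 ± 2.52 of Zc3h11a with both identifiers summed, and 11.5 ± 3.34 of Gm38394 (SD, n = 3 each). Under the shDNAJB1 label the levels were 1.07 ± 0.731, 9.44 ± 1.86 and 14.3 ± 2.56 CPM per kb. By these counts Zbed6 was the lowest of them in each of the 6 libraries. All its bases are also exonic in Gm38394 and the handling of shared reads is not known, so this does not rank the transcripts.

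The 4 identifiers summed to 105, 185 and 194 CPM in the controls and to 193, 217 and 213 CPM under the shDNAJB1 label. Control 1 was low and the other 5 libraries lay between 185 and 217 CPM, and the groups overlapped. With the locus entered as 1 gene the log2 difference was 0.36 (SE 0.22), and 0.14 without control 1.

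**Figure D3:**
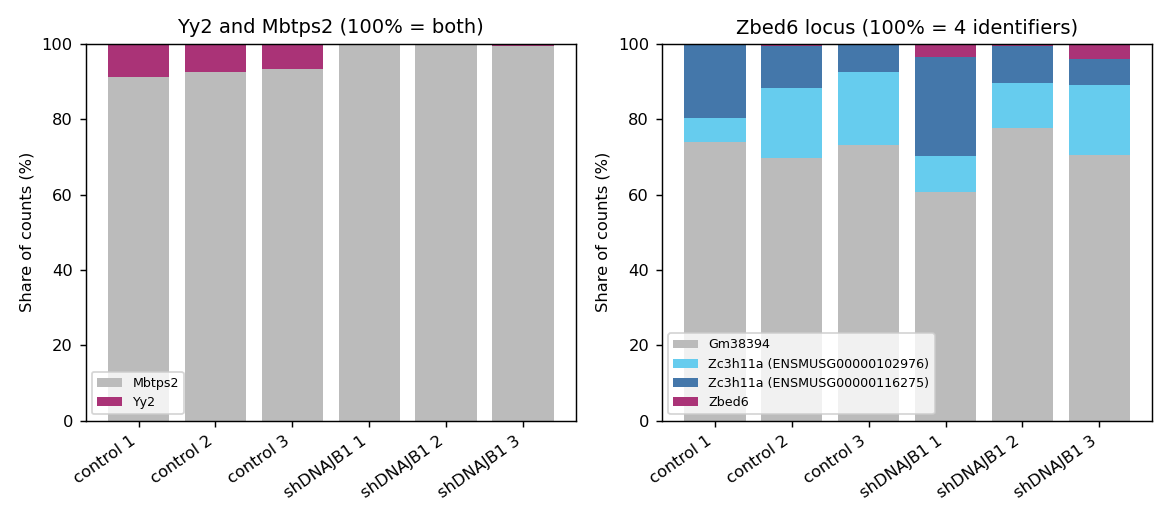
Share of counts (%) taken by each identifier in each library, for Yy2 with Mbtps2 (left) and for the 4 identifiers that share exons around Zbed6 (right). Yy2 takes 6.61% to 8.80% of its pair in controls and at most 0.542% under the shDNAJB1 label, and Zbed6 takes 3.36% and 3.93% in shDNAJB1 1 and 3 and at most 0.595% in the other 4 libraries.

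Marker sums of other cell types give the tissue context of these differences. Oligodendrocyte markers had lower values in 6 of 6 under the shDNAJB1 label, with sums of 13947 to 15040 CPM in controls and 8105 to 14849 CPM in that group. Astrocyte markers were lower in 4 of 5, with sums of 3362 to 4172 and 2911 to 3396 CPM, and microglia markers in 4 of 4, with 119 to 244 and 76.1 to 256 CPM. Endothelial markers were higher in 4 of 4, with 185 to 206 and 182 to 297 CPM. Of the dopaminergic markers 4 of 6 were lower, and of the GABAergic markers 3 of 4. All 6 ranges of sums overlapped between the groups. The part of cell makeup in the Yy2 and Zbed6 values was not tested.

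Genes with the same kind of annotation, the members among them, were counted together. Of the protein-coding genes in the files, 31 had every exonic base inside exons of another protein-coding gene on the same strand, and 11 of these shared the symbol of that gene. Counts were 0 in all libraries for 6 of the 31, reached 1 to 9 at most for 13 and reached 10 or more for 12, among them Yy2, Zbed6 and Zc3h11a ENSMUSG00000116275. In 9 of the 31 every library held 1 to 5 counts. The 12 with 10 or more had a median coefficient of variation of 72.5% over the 6 libraries, against 13.8% for their hosts, and 11 of 12 varied more than the host. Their median mean count was 50.2, against 432 for all genes tested, and the part of the low counts in this variation was not tested. The members, chosen by their counts in these libraries, are part of these figures, so the figures are a description. The coefficient of variation was 107% for Yy2, 114% for Zbed6 and 58.2% for Zc3h11a ENSMUSG00000116275.

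Several of the 12 genes were far apart between libraries of 1 group. Gdf1, a growth factor gene that shares a transcript with Cers1, had 28, 1 and 128 counts in the controls and 6, 33 and 3 under the shDNAJB1 label. The second identifier of Nnt, the nicotinamide nucleotide transhydrogenase, had 143, 443 and 122 counts in controls and 215, 53 and 247 under the shDNAJB1 label. Of these 12, Yy2 and the second identifier of Chtf8 were at 0 in some library and at 50 or more in another, and Chtf8 reached 83 in shDNAJB1 2 alone. Over all genes, 100 of the 21336 that reached 10 counts (0.469%) met that description. Gdf1, Nnt and Trex1 were chosen after their values were seen.

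The share of the nested gene in the counts of its pair had groups that did not overlap for 2 of these 12 genes (16.7%), Yy2 and Trex1, both lower under the shDNAJB1 label. Yy2 was picked for this difference, so nothing is read from it here. Trex1, an exonuclease gene inside Atrip, had 81, 25 and 25 counts in controls and 11, 20 and 16 in the second group. Other genes lie in the span of a host on the same strand but have exonic bases of their own. Of these, 158 reached 10 counts in some library and had a host above 0 in every library. Their share had groups apart for 24 (15.2%), 18 with higher and 6 with lower values under the shDNAJB1 label. The 158 genes had a median coefficient of variation of 27.2%, with 22.9% for their hosts.

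**Figure D4:**
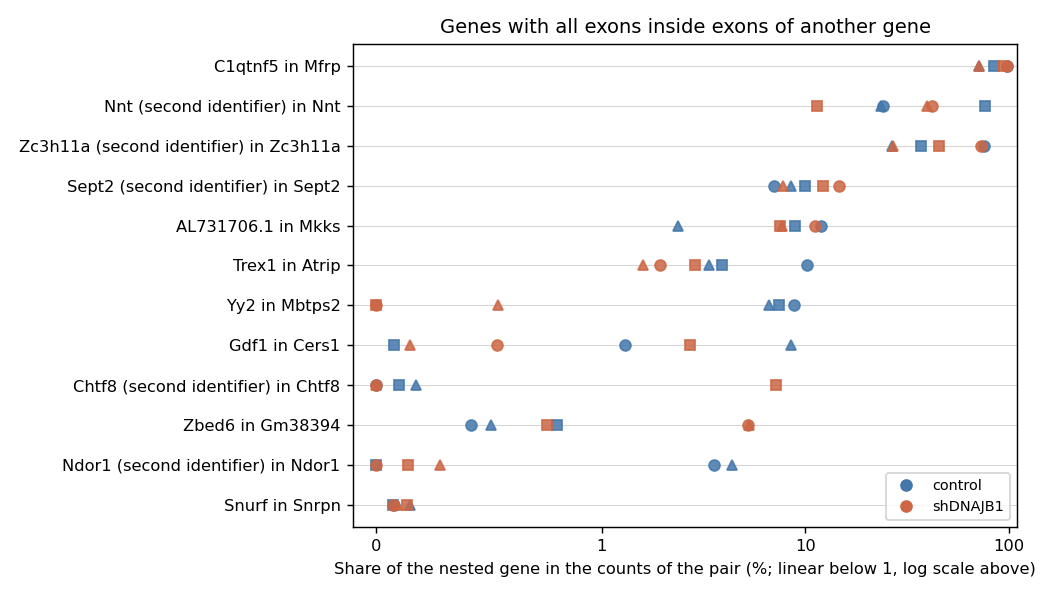
Share (%) of the nested gene in the counts of it and its host, for the 12 exon-contained genes with 10 counts or more in some library (points are libraries, symbols the replicate number as in the plot of levels; the axis is linear below 1 and logarithmic above). The groups are apart for Trex1 and for Yy2, at 6.61% to 8.80% against 0% to 0.542%, and Nnt, Gdf1 and Zc3h11a spread widely inside both groups.

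Other nested genes with exons of their own, 13 in all, ranged widely in their share and in its spread. Mcts2, a translation factor gene copied from Mcts1 and nested in H13 on the same strand, had 153 to 166 counts in controls and 138 to 209 under the shDNAJB1 label, and took 5.97% to 9.13% of the counts of its pair. Utp14b in Acsl3, also on the same strand, took 7.34% to 12.7%. On the strand opposite to the host, Nap1l5 in Herc3 took 87.6% to 90.9%, Zrsr1 in Commd1 81.7% to 88.9%, Cstf2t in Prkg1 77.6% to 90.1% and Timp3 in Syn3 92.3% to 96.1%. On that strand too, Omg in Nf1 took 35.5% to 52.8% and Evi2a in Nf1 15.9% to 31.3%. Timp4 in Syn2 took 11.6% to 21.5% and Nnat in Blcap 60.9% to 76.1%. Timp1 in Syn1 and Evi2b in Nf1 took at most 0.182% and 0.247%. Among genes in the span of a same-strand host with exonic bases of their own, 3 were at 0 in some library and at 50 or more in another. They were Slc18a3, Cntf, a neurotrophic factor gene inside Zfp91 with 0, 73 and 37 counts and then 44, 18 and 0, and Gm42878 inside Adam1a with 1, 249 and 0 counts and then 392, 611 and 78. Slc18a3, the vesicular acetylcholine transporter gene inside Chat, took 0% to 48.1% of its pair. Its counts were 292, 0 and 140 in the controls and 23, 15 and 32 under the shDNAJB1 label, and those of Chat, which makes acetylcholine, were 318, 36 and 151 and then 39, 20 and 56. The log2 difference of Slc18a3 was -2.47, but -1.60 without control 1, -1.61 with a replicate block and -0.37 in limma-voom, and that of Chat was -2.01, but -1.32 without control 1. In this list of other nested genes, 8 of the 12 tested were lower and the median log2 difference was -0.11. Of their 11 hosts 9 were lower, and the median was -0.13. The median over all genes tested was 0.01, and 50.8% had higher values. By edgeR's test 0 of the 12 and 0 of the 11 passed, as in DESeq2 and limma-voom, and 1 of each, Omg and Chat, had an unadjusted p under 0.05, against 6.37% of all genes tested. Omg, the oligodendrocyte myelin glycoprotein gene inside Nf1, was the 1 nested gene with groups apart, at 133 ± 26.3 and 102 ± 4.36 CPM (SD, n = 3 each), where 7.06% of all genes tested had groups apart with lower values. Its log2 difference was -0.39, and -0.21 without control 1.

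Genes that work with the members were counted next, and by edgeR's test 0 of them passed an adjusted p of 0.05. DESeq2 and limma-voom also called 0, and at an unadjusted edgeR p under 0.05 there were 2 genes of SREBP targets, Scd1 and Scd2, and 1 of mRNA export, Thoc7, against 6.37% of all genes tested. The YY1 family and the INO80 complex had 14 tested genes, 5 with higher and 9 with lower values, and their median log2 difference was -0.02. Ino80c, an INO80 subunit gene, had groups apart at 26.5 ± 3.15 and 22.7 ± 1.56 CPM (SD, n = 3 each; edgeR adjusted p = 0.778), and its log2 difference of -0.23 was -0.12 without control 1. It was 1 of the 14 with groups apart, against 14.0% of all genes tested. Ino80d was at 46.8 ± 11.5 and 55.5 ± 4.598 CPM, Actr5 at 6.42 ± 0.56 and 7.82 ± 1.04, and Ruvbl1, an ATPase of the complex, at 24.5 ± 3.60 and 21.6 ± 3.06. Zfp42, the other copied relative of Yy1 in the genome and a gene of pluripotent cells, had 0 counts in all 6 libraries, and Creb3l4 and Evi2b of the lists below and above were too low to be tested.

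On the side of the site-2 protease, lower values were seen in 9 of 11 tested genes and higher values in 2, and the median log2 difference was -0.18. Groups were apart for 4 of the 11, 3 lower (against 7.06% of all genes tested) and 1 higher (against 6.98%). Insig1, which holds the SREBP complex in the endoplasmic reticulum, was at 141 ± 22.04 CPM in controls and 120.4 ± 9.27 CPM under the shDNAJB1 label, and Creb3l2, a membrane-bound transcription factor gene, at 26.5 ± 2.55 and 21.6 ± 1.71 CPM (SD, n = 3 each). The log2 difference of Insig1 was -0.23, and -0.09 without control 1. The fourth gene with groups apart beside these and Creb3l1 was Insig2, at 56.5 ± 0.67 and 51.8 ± 3.27 CPM. Creb3l1 was at 2.34 ± 0.58 and 3.16 ± 0.13 CPM, and Creb3 at 32.01 ± 4.27 and 28.1 ± 2.02 CPM. The median was -0.06 without shDNAJB1 1 and -0.11 without control 1.

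Targets of SREBP had lower values in 10 of 13, with a median of -0.10. The desaturase genes Scd2 and Scd1, which also serve myelin lipid, had groups apart, Scd2 at 3107 ± 242 and 2270 ± 185 CPM and Scd1 at 557 ± 29.5 and 459.6 ± 24.8 CPM (SD, n = 3 each; edgeR adjusted p = 0.765 for both). They were 2 of the 13, against 7.06% of all genes tested with groups apart and lower values. Oligodendrocyte markers, whose sums are given above, were also lower in 6 of 6, and the part of that cell type was not tested. The list median was -0.03 without shDNAJB1 1, -0.06 without control 1 and -0.26 without shDNAJB1 3. Acaca and Fasn, enzymes of fatty acid synthesis, were at 122 ± 12.6 and 105 ± 19.5 CPM and at 325 ± 16.7 and 277 ± 77.0 CPM. Targets of ATF6 had lower values in 9 of 12, with a median of -0.03, and Syvn1, a ubiquitin ligase gene of the endoplasmic reticulum, was the 1 with groups apart (higher values, against 6.98% of all genes tested), at 34.1 ± 2.45 and 38.3 ± 0.61 CPM. Dnajb11, Sdf2l1 and Herpud1 had log2 differences of -0.19 (SE 0.12), -0.20 (SE 0.25) and -0.08 (SE 0.13).

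Igf2, the gene that ZBED6 represses in muscle, was at 28.0 ± 7.80 CPM in controls and 28.2 ± 2.98 CPM under the shDNAJB1 label (SD, n = 3 each), a log2 difference of 0.01 (SE 0.20). The other ZBED genes also had differences near 0, with 0.08 (SE 0.17) for Zbed4, 0.05 (SE 0.14) for Zbed5 and -0.02 (SE 0.18) for Zbed3. For the TREX complex and mRNA export, 10 of 14 tested genes had higher values, with a median of 0.07. Groups were apart for 4 of the 14, each higher, against 6.98% of all genes tested. They were Poldip3 at 59.6 ± 1.65 and 63.5 ± 2.65 CPM, Thoc7 at 46.4 ± 4.67 and 56.2 ± 4.03 CPM, Ddx39b, the helicase of TREX, at 114 ± 16.3 and 139 ± 4.91 CPM, and Thoc1 at 46.8 ± 12.1 and 58.3 ± 0.48 CPM. Nxf1, the export receptor gene, was at 78.1 ± 22.6 and 101 ± 6.31 CPM with overlapping groups. Without control 1 the log2 difference of Thoc1 was 0.13 in place of 0.32, that of Nxf1 0.16 in place of 0.37 and that of Ddx39b 0.18 in place of 0.28.

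**Figure D5:**
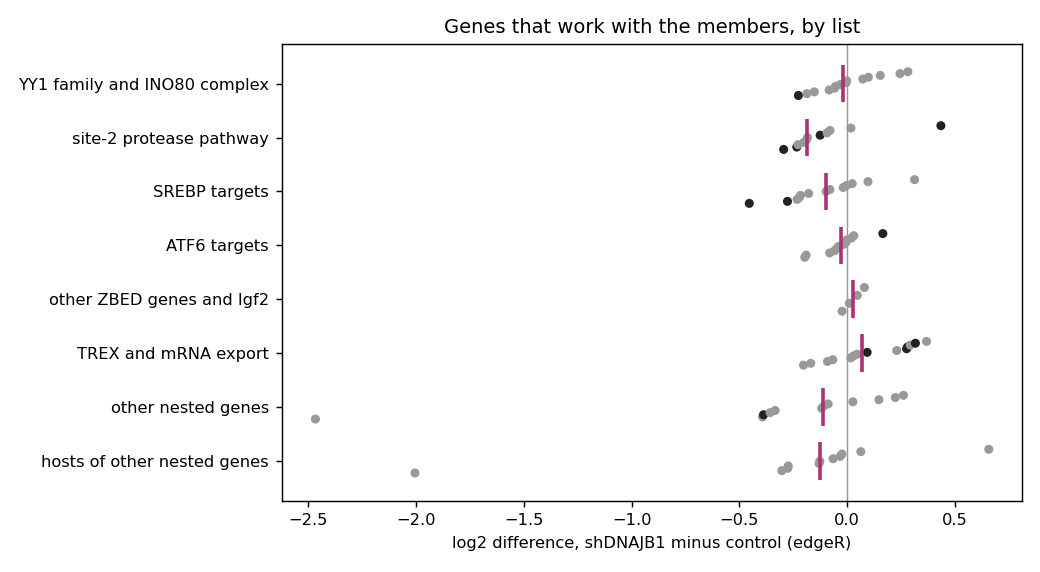
Log2 difference (shDNAJB1 minus control, edgeR) of each tested gene in the 8 lists of genes related to the members (points; black where the groups do not overlap; the purple line is the list median). Medians lie between -0.18 and 0.07, and the far points are Slc18a3 at -2.47 and its host Chat at -2.01, which were -1.60 and -1.32 without control 1.

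The genes whose levels followed those of each member most closely were looked up over the 6 libraries, as the smallest root mean square difference of centred log2 CPM among 13805 genes. For Yy1 these were Ptrh2, Stag2 and Abraxas2, at 0.02 to 0.03, and for Mbtps2 they were Tab2, Zbtb6 and Fah, at 0.02 to 0.03, where the members' own spread was 0.09 and 0.08. For Zbed6 the nearest was Phc3, a Polycomb gene, at 0.45 against an own spread of 1.595, followed by Col19a1 at 0.84 and Col4a4 at 0.91. Phc3 had 430, 724 and 791 counts in the controls and 2540, 673 and 4892 under the shDNAJB1 label, so it too was high in shDNAJB1 1 and 3 and not in shDNAJB1 2. For Yy2 the nearest was the immunoglobulin gene Ighg2b at 1.31 against an own spread of 2.42, then Dlx1 at 1.44 and Pcdha11 at 1.57. The first Zc3h11a identifier was nearest to Srrm4os, Gapdhs and Col28a1, at 0.27 to 0.32. Tnfrsf13b and H2-T10 were among the 3 nearest to the second, at 0.19 and 0.22.

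Start regions of the 5 members were searched for CCATNTT, the core that YY1 and YY2 bind, on both strands, in RefSeq windows of GRCm38.p6 that run from 250 bases before to 50 bases after the start. Zc3h11a held 2 matches and the windows of Yy1, Yy2, Mbtps2 and Zbed6 held 0, while 16.1% of 32851 windows over all genes held 1 or more. The matches are shown in capitals with their flanks, on the strand of the gene, at chr1:133661477-133661505 and chr1:133661365-133661393. The first begins 95 bases before the start and the second at base 18 after it. Gm38394, which also holds the Zbed6 coding sequence, was not among the 5 searched. Its annotated 5′ end is at chr1:133661318 on the minus strand, so both matches lie upstream of it.
Zc3h11a upstream match: gacccaagaagCCATTTTaaggctggcct
Zc3h11a downstream match: gtagccgggcgCCATCTTtgacgctggca
Both are descriptions of sequence, and no binding was measured in these samples.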

How the data were processed

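The authors deposited raw counts per Ensembl gene, 1 file per library, from strand-specific TruSeq libraries of total RNA, per the labels' protocols. FastQC 0.11.5, STAR 2.5.3a, Cuffnorm, DESeq 1.16.1 and mm10 are named in the submitters' processing notes. The sources used here give no counting tool, annotation release or strand setting. Names and gene models came from GENCODE M21 (mm10), which matched 55154 of 55335 identifiers.

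Low genes were removed by edgeR's filterByExpr (at least 10 counts at the median depth, total of 15), libraries were scaled by TMM, and edgeR 4.0.16 in R 4.3.3 gave the test (quasi-likelihood, Benjamini-Hochberg over 18870 genes). SE is the log2 difference over the square root of F. The procedure was tested on simulated data. Alternatives were DESeq2 1.42.0 size factors and Wald test, limma-voom (limma 3.58.1), upper-quartile scaling, other filters, a prior count of 2, a replicate block and leaving out libraries. The members and lists were chosen with earlier results of these data known. Named were the members, up to 4 genes of each list by smallest unadjusted p, the 3 nearest genes of each member (1 is not reported here), and nested genes at 0 counts in 1 library and 50 or more in another. The summed loci, the host count with Gm38394 and DESeq2 on all genes with at least 1 count were added after seeing the data. So was leaving out control 1 with shDNAJB1 3.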

Additional observations from a re-analysis of the deposited data

How the results depend on the processing

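The count of 0 genes past the threshold was 56 in DESeq2's Wald test. It was 35 when that test started from all genes with at least 1 count, and 0 in the other alternatives. The cause was not tested. The Yy2 share, -7.44 percentage points, was -21.9 per exonic kb, where the shorter gene weighs more by construction, and -7.95 to -6.85 on leaving out 1 library. The Zbed6 share, 6.70 percentage points, was 2.21 with Gm38394 added to the denominator and 4.14 to 9.45 on leaving out 1 library. Of 799 alternative values, 780 stayed within 1 SD and 19 moved by more. Yy2 and Zbed6 fell out of the stricter filter and have no value there. Same-numbered libraries were not treated as pairs in the main test. Their deviations from group means correlated at 0.04, -0.02 and 0.08. Among the shDNAJB1 libraries, the best match of controls 1 and 3 was the same-numbered one, and that of control 2 was not. With 3 libraries per group these values cannot settle whether the libraries were paired. The replicate block gave 0 genes and log2 differences of -5.37 for Yy2 and 2.75 for Zbed6. Its share differences, -7.44 and 6.70 percentage points, equal the main values by construction, since each group has 3 libraries. They are counted among the 780 but are no check. The median of the YY1 family and INO80 list changed sign in 5 alternatives, at 0.04 without control 1 and without shDNAJB1 1, 0.02 without shDNAJB1 2, and 0.01 in the stricter filter and without both control 1 and shDNAJB1 3. That of ATF6 targets did so in 3 and that of other ZBED genes in 2. Depth limits Yy2 where it had 0 counts, since the floor is 3.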
